A study of Mus musculus with 8 samples.

Results

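Simple epithelial keratins and genes of the trophoblast lineage were followed through a knockdown of Kdm2b in mouse embryonic stem cells (ESCs). The set holds 10 genes of the 19938 that have a probe set of their own on the array, and every one of the 10 is read by 1 probe set that names it alone. They are the keratin genes Krt7, Krt8, Krt18 and Krt19, the epithelial adhesion gene Epcam, the transcription factor genes Cdx2, Elf5, Tfap2c and Esx1, and Plet1, which encodes a surface protein of the early placenta. The genes were chosen by name for what they are known to do, with earlier results of these arrays known.

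Total RNA came from E14, a line of mouse ESCs that grows without feeder cells, kept in medium with LIF, and was measured on 8 Affymetrix Mouse Gene ST arrays. In 4 samples (shKdm2b) the cells stably carried an shRNA against Kdm2b, and in 4 control samples (shScr) they carried a scrambled shRNA. Both constructs were delivered by lentivirus, and puromycin selected the stable lines in both groups. Passages ran from 27 to 30 among the shKdm2b samples and from 28 to 31 among the shScr samples. A knockdown sample thus lay 1 passage below the control that shares its replicate number, and passage within such a pair cannot be told apart from the knockdown. Each group carried a single shRNA sequence, so that the replicates do not show how a second shRNA would behave. The 21-base shRNA sequences are shown because they define the groups, as the submitters gave them.
shKdm2b: cgctgtggaaatatctgtcat
shScrambled: cctaaggttaagtcgccctcg

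The trophoblast is the first lineage to part from the embryo proper. It begins as the trophectoderm, the epithelium around the blastocyst, and goes on to build the placenta. Keratin filaments form from a type II partner (keratin 7 or 8) and a type I partner (keratin 18 or 19), and keratins 8 and 18 are the first pair made in the embryo. CDX2, ELF5 and TFAP2C belong to the factor network that sets up and maintains trophoblast stem cells, whereas ESCs hold this fate in check, in part by methylation of the Elf5 promoter. KDM2B binds non-methylated CpG dinucleotides through its ZF-CxxC domain and forms part of a variant polycomb repressive complex 1.

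For the genes whose groups separated or whose call depended on the pairing of arrays, the 250 bases before the start of the RefSeq transcript are given with each CG dinucleotide, the letters that the ZF-CxxC domain reads when they are not methylated, in capitals. The sequences are those of the GRCm38.p6 table of RefSeq, which lists no promoter window for Krt19 and Tfap2c and therefore covers 8 of the 10 genes.
Krt8, chr15:102004343-102004592, minus strand: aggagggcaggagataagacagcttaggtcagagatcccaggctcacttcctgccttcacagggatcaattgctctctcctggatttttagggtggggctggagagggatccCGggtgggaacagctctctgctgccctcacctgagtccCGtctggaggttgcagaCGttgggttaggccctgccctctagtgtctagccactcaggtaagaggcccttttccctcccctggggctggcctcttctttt
Krt18, chr15:102027966-102028215, plus strand: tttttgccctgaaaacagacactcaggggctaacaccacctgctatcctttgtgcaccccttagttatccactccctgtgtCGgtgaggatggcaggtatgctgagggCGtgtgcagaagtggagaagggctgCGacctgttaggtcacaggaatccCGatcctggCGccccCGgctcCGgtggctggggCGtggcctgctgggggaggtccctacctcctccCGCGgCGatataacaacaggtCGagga
Plet1, chr9:50494275-50494524, plus strand: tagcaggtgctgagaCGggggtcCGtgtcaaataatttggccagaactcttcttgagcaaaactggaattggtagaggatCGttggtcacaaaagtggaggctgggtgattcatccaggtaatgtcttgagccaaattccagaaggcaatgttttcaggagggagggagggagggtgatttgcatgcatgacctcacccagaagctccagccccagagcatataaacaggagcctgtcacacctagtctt
Esx1, chrX:137120327-137120576, minus strand: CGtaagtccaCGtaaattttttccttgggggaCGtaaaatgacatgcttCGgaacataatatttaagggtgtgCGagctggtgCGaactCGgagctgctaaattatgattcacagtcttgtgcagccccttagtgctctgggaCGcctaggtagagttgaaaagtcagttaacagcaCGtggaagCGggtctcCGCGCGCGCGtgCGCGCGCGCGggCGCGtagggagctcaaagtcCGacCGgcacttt
Over windows of 300 bases, which also take in 50 bases after the start, Krt8 had 6 CG dinucleotides and Plet1 had 5, against a median of 7 over all 32851 windows in the table. Krt18 had 17 and Esx1 had 24. The ratio of observed to expected CG was 0.238 for Krt8 and 0.245 for Plet1, at percentiles 34.1 and 35.1 of all windows, and 0.603 for Krt18 and 1.10 for Esx1, at percentiles 64.4 and 98.0. The windows of Krt8 and Plet1 were thus poorer in CG than the median window, and that of Esx1 was among the richest by this ratio. Among the remaining genes Krt7 had 21 CG dinucleotides, Cdx2 18, Epcam 11, and Elf5 3 and 10 at its 2 listed starts. Methylation and binding at these windows were not analysed here.

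Letters that factors of the trophoblast network are known to prefer were also looked up on both strands of the 300-base windows. The AP-2 motif GCCNNNGGC occurred in the windows of Krt7, Krt18 and Cdx2, and in 16.6% of all windows. The ETS motif GGAAGT, which ELF5 and other ETS factors share, occurred for Krt7 and Krt8 and in 23.8% of all windows. The CDX motif TTTATNG was found for Epcam (10.9% of all windows) and the TEAD motif GGAATG for the first Elf5 window (14.7% of all windows). No matches overlapped, and Plet1 and Esx1 held none of the letters searched. A match here is a stretch of letters and not a binding site.

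Kdm2b itself was lower in every shKdm2b array, as its log2 signal was 8.68, 9.12, 9.45 and 8.91 in replicates 1 to 4 against 10.74, 11.10, 11.34 and 11.20 in the shScr arrays. It fell by 2.05 on the log2 scale (SE 0.18, limma adjusted p = 0.000891). The values are log2 signals that the authors made with RMA, which gives all arrays the same distribution, so that the array medians lay between 8.47 and 8.53 and any shift that most transcripts share is hidden. Pou5f1, Nanog and Sox2, which define pluripotent cells, stood between 13.27 and 13.84 on the 8 arrays. In a principal component analysis of all probe sets, shKdm2b replicate 3 lay nearest to the controls on the first component, which held 51.7% of the variance. The samples are labelled as independent biological replicates and the study speaks of a knockdown line and a control line, so that the p-values rest on the spread between samples and not between separately derived lines.

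**Figure D1:**
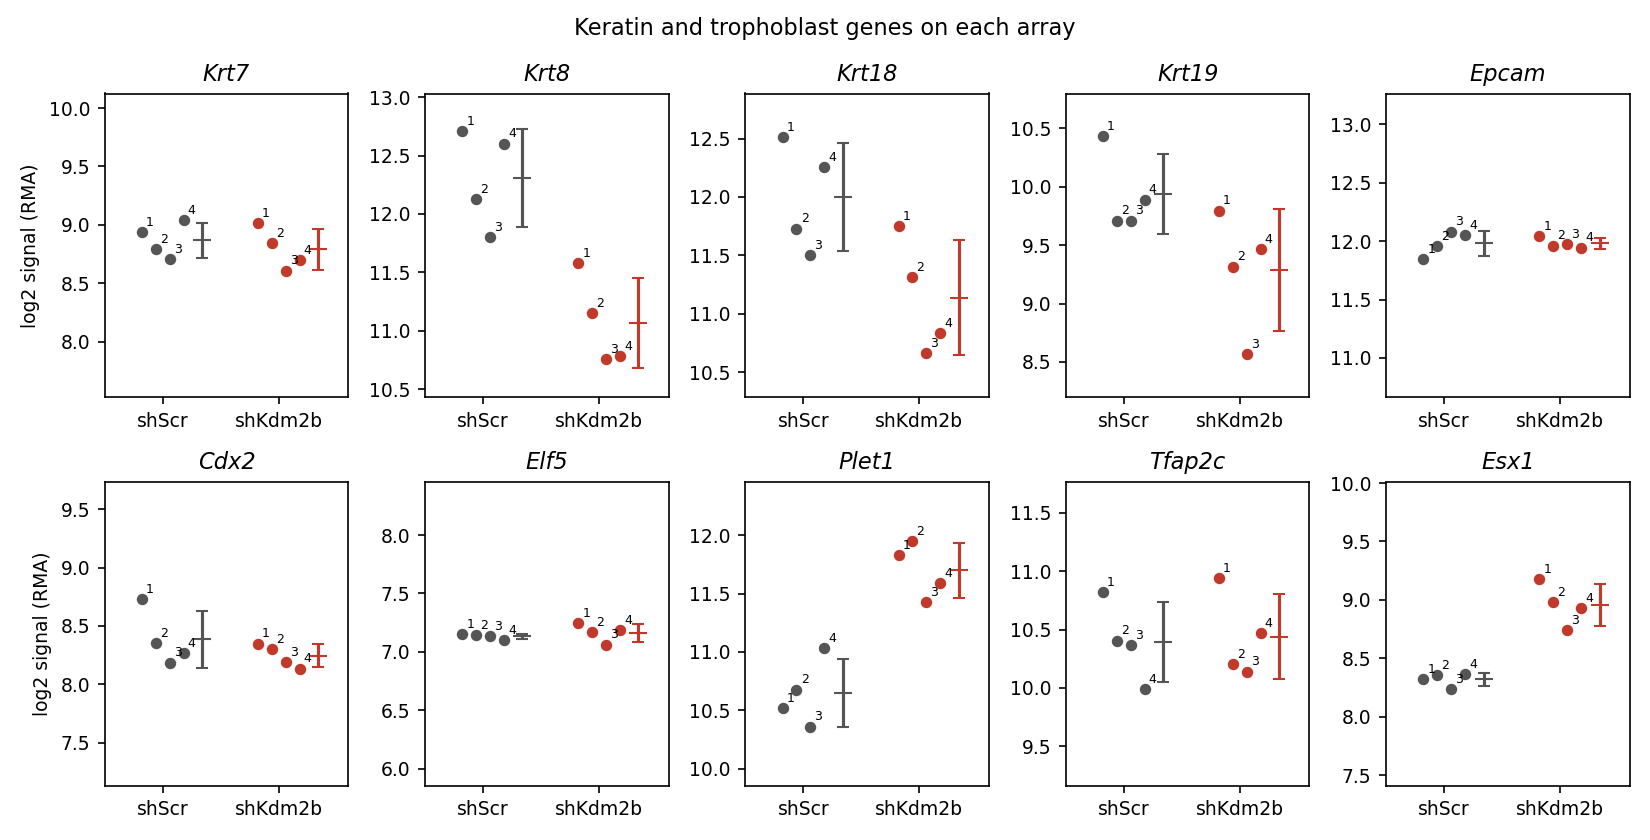
Log2 RMA signal (vertical axes, all of the same span) of the 10 genes on the 4 shScr arrays (grey) and 4 shKdm2b arrays (red). Points are arrays labelled by replicate number, and bars give the mean and SD (n = 4 per group). Krt8 is lower on all shKdm2b arrays than on any shScr array, Plet1 and Esx1 are higher on all, and the groups of the other 7 genes overlap.

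With the gene rule of the study, which asks for an adjusted p under 0.05 in most probe sets of a gene and a change of at least 1.5-fold in the most significant one, Krt8 fell, Plet1 and Esx1 rose, and the other 7 genes did not pass. Over all genes the same rule called 1.42% higher and 1.43% lower, 2.85% in all. Without the minimum of 1.5-fold, the same 3 of the 10 genes passed, beside 5.75% higher and 4.55% lower over all genes. The arrays of the groups did not overlap for the same 3 genes. Over all genes, 11.8% had all 4 shKdm2b arrays above all 4 shScr arrays and 9.18% had all below. The median log2 fold change of the 10 genes was -0.04, beside 0.05 for all genes, and the individual changes ran from -1.24 to 1.05. The set therefore had no common direction, and it is described below by the roles of its genes.

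Krt8, the type II keratin of simple epithelia, showed the largest change of the 10 genes. Its log2 signal was 11.58, 11.15, 10.76 and 10.79 in shKdm2b replicates 1 to 4, and 12.71, 12.13, 11.80 and 12.60 in shScr replicates 1 to 4. The highest shKdm2b array, replicate 1, lay just below the lowest shScr array, replicate 3. The mean dropped from 12.31 ± 0.42 to 11.07 ± 0.38 (SD, n = 4 arrays per group). In log2 terms the fold change was -1.24 (95% confidence interval -1.79 to -0.69, SE 0.24, limma adjusted p = 0.0204), which is a signal 2.37-fold lower. An exact two-sided permutation test over the 70 divisions of the arrays gave p = 0.0286, the smallest that it can give. Since RNA of whole cultures was measured, less Krt8 RNA per cell and fewer cells that express it cannot be told apart. The call was lost without shKdm2b replicate 2, shKdm2b replicate 4 or shScr replicate 4, at an adjusted p of 0.0587, 0.0629 and 0.0572 (limma), with log2 fold changes of -1.27, -1.15 and -1.15.

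Krt18 encodes the type I partner of keratin 8, and its gene is the next protein coding gene beside Krt8 on chromosome 15. The log2 signals of its shKdm2b arrays were 11.75, 11.31, 10.66 and 10.83, and those of its shScr arrays 12.51, 11.73, 11.50 and 12.25. Replicate 1 was the highest and replicate 3 the lowest of each group, and shKdm2b replicate 1 lay above shScr replicates 2 and 3. Krt18 had a log2 fold change of -0.86 (SE 0.28, 95% confidence interval -1.51 to -0.21) and did not pass, at an adjusted p of 0.101 (limma), with an exact permutation p of 0.0857. Within the pairs of the same replicate number, however, Krt18 was lower in the shKdm2b array each time, by 0.76, 0.42, 0.84 and 1.42 log2 units in turn. Once blocked by replicate number, the SE was 0.16 and the adjusted p was 0.0287 (limma), which meets the gene rule.

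Krt19, a type I keratin that can pair with keratins 7 and 8, gave a similar picture. Its log2 signal was 9.79, 9.32, 8.57 and 9.47 in the shKdm2b arrays and 10.43, 9.71, 9.71 and 9.89 in the shScr arrays. shKdm2b replicate 3 was the lowest of these values, and shKdm2b replicate 1 lay above shScr replicates 2 and 3. Its log2 fold change was -0.65 (95% confidence interval -1.25 to -0.05, SE 0.26, limma adjusted p = 0.164), with an exact permutation p of 0.0857. In the same-numbered pairs the shKdm2b array was again lower in 4 of 4, by 0.39 to 1.14 log2 units, and with the block the adjusted p was 0.0378 (SE 0.14, limma). Without shKdm2b replicate 3, the fold change on the log2 scale was -0.41.

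The blocked fit thus called 3 of the 10 genes lower, Krt8, Krt18 and Krt19, in place of 1, and the same 2 higher. Over all genes it called 1.68% lower and 1.59% higher, 3.27% in all. Being lower in each of the 4 pairs is not rare on these arrays, as 18.9% of all genes were. The blocked fit treated arrays of the same number as paired, since their deviations from the group means correlated, though weakly, at 0.118 to 0.355. The fit without a block and the exact permutation tests did not use this pairing.

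**Figure D2:**
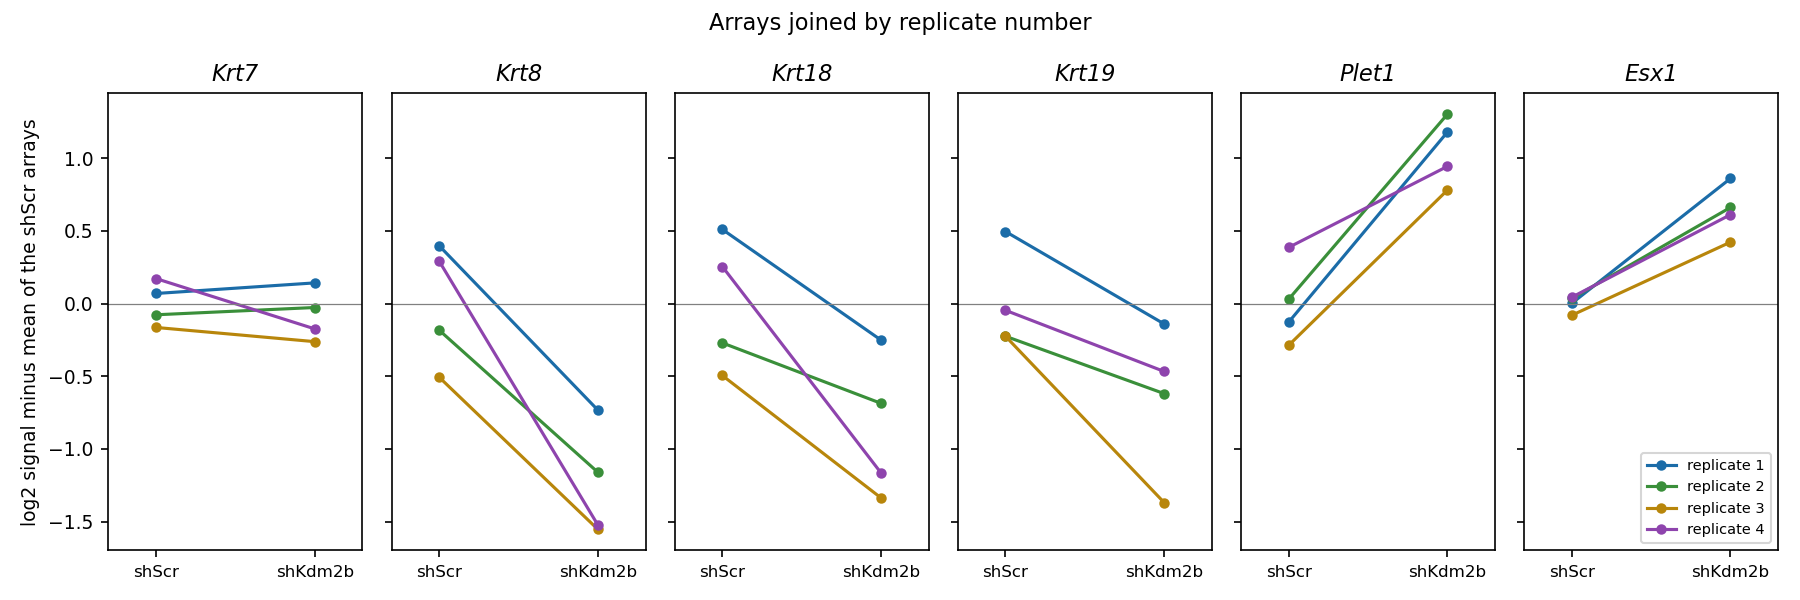
Log2 signal of 6 genes relative to the mean of their shScr arrays (vertical axis), with lines joining the shScr and shKdm2b arrays of the same replicate number. All 4 lines fall for Krt8, Krt18 and Krt19 and rise for Plet1 and Esx1, whereas for Krt7 2 rise and 2 fall.

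Krt7, the other type II keratin of the set, did not follow Krt8. The log2 signal of its probe set was 9.01, 8.84, 8.61 and 8.70 in the shKdm2b arrays and 8.94, 8.79, 8.71 and 9.04 in the shScr arrays, with full overlap. Krt7 had a log2 fold change of -0.08 (95% confidence interval -0.32 to 0.16, SE 0.11, limma adjusted p = 0.664). For this probe set, both ends of that interval lie within a change of 1.5-fold.

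Whether the keratins changed unequally was asked of the 6 pairs of keratin genes, by the difference of their log2 signals within each array, a comparison added after the values had been seen. The difference Krt8 minus Krt18 was -0.17 to 0.09 in the shKdm2b arrays and 0.20 to 0.40 in the shScr arrays, so that the ranges did not overlap. It was lower by 0.38 on average with the knockdown (exact two-sided permutation test over the 70 divisions of the arrays, p = 0.0286, the smallest that these can give, and 0.0429 after Benjamini-Hochberg adjustment over the 6 pairs). For Krt7 minus Krt8, the difference was -2.56 to -2.09 in the shKdm2b arrays and -3.77 to -3.10 in the shScr arrays, with the same p and adjusted p. Krt7 minus Krt18 and Krt7 minus Krt19 moved by 0.78 and 0.57 with the same p-values. Krt8 minus Krt19 moved by -0.59 (exact permutation p = 0.0571, adjusted 0.0686) and Krt18 minus Krt19 by -0.21 (exact permutation p = 0.371 before and after adjustment). The 6 pairs share genes and use the values given above. Their p-values are therefore not independent of each other or of the results for single genes. They describe values already seen and do not test a question set beforehand. The pairs with Krt7 also rest on a signal near the median probe set, 8.49, where a change may be compressed. RMA compresses fold changes by an amount that depends on the probes, so that these differences compare probe sets and not molecule numbers.

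Epcam, which encodes an adhesion protein of epithelial cells that ESCs also carry, gave overlapping groups. Its log2 signal lay between 11.94 and 12.05 in the shKdm2b arrays and between 11.85 and 12.08 in the shScr arrays. Epcam thus had a log2 fold change of -0.00 (95% confidence interval -0.15 to 0.15, SE 0.06, limma adjusted p = 0.990).

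Plet1, a marker of trophoblast progenitors, rose most. Its log2 signal was 11.83, 11.95, 11.43 and 11.59 in the shKdm2b arrays and 10.52, 10.68, 10.36 and 11.03 in the shScr arrays. Replicate 3 was the lowest array in both groups, and the lowest shKdm2b array stood above the highest shScr array, replicate 4. The mean rose from 10.65 ± 0.29 to 11.70 ± 0.23 (SD, n = 4 arrays per group), or 2.07-fold (log2 fold change 1.05, 95% confidence interval 0.69 to 1.42, SE 0.16, limma adjusted p = 0.00853). In the fits without any 1 array, its log2 fold change was 0.96 or more, and Plet1 passed in all 8 of them. The exact permutation p was 0.0286 for Plet1, the smallest possible. The RefSeq table lists a non-coding gene, Plet1os, that overlaps Plet1, and whether the probes read both was not tested.

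Esx1, an X-linked homeobox gene of the placenta and testis, also rose. Its log2 signal was 9.18, 8.98, 8.74 and 8.93 in the shKdm2b arrays, and 8.32, 8.35, 8.24 and 8.36 in the shScr arrays. The shScr arrays agreed closely (SD 0.06), the shKdm2b arrays less so (SD 0.18), and the groups did not overlap. The shScr values lay below the median probe set, 8.49, so that the size of the change may be compressed. The rise was 1.56-fold (log2 fold change 0.64, 95% confidence interval 0.44 to 0.84, SE 0.09, limma adjusted p = 0.00627), just past the limit of the gene rule, with an exact permutation p of 0.0286. Without shKdm2b replicate 1 it was 0.57 on the log2 scale and short of 1.5-fold, at an adjusted p of 0.00808 (limma). In a fit restricted to passages 28 to 30 and blocked by passage, Plet1 and Esx1 no longer passed (log2 fold changes 1.14 and 0.58, adjusted p = 0.0533 and 0.0798 from limma), while Krt8 did (-1.32, adjusted p = 0.0268 from limma). In that fit 6 arrays remain, and the arrays it compares carry different replicate numbers.

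The transcription factors at the centre of the trophoblast network did not pass the test. Cdx2, a homeobox gene that starts the trophectoderm programme, had log2 signals of 8.35, 8.30, 8.19 and 8.13 in the shKdm2b arrays and 8.73, 8.36, 8.19 and 8.27 in the shScr arrays (log2 fold change -0.14, 95% confidence interval -0.41 to 0.13, SE 0.12, limma adjusted p = 0.483). The highest of these values was that of shScr replicate 1. Elf5, an ETS factor gene that maintains trophoblast stem cells, was read by a dim probe set at 7.06 to 7.25 in the shKdm2b arrays and 7.10 to 7.15 in the shScr arrays (log2 fold change 0.03, 95% confidence interval -0.09 to 0.16, SE 0.05, limma adjusted p = 0.736). The probe sets of Cdx2 and Elf5 lay below the median probe set, 8.49, so that a change of their RNA would be compressed.

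Tfap2c, which encodes AP-2 gamma, was well above that median, at 10.94, 10.20, 10.14 and 10.47 in the shKdm2b arrays and 10.82, 10.40, 10.37 and 9.99 in the shScr arrays. Replicate 1 was the highest in both groups, and the spread within the groups (pooled SD 0.35) was far larger than the difference between them. Tfap2c had a log2 fold change of 0.04, with a wide 95% confidence interval from -0.44 to 0.53 (SE 0.21, limma adjusted p = 0.916).

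**Figure D3:**
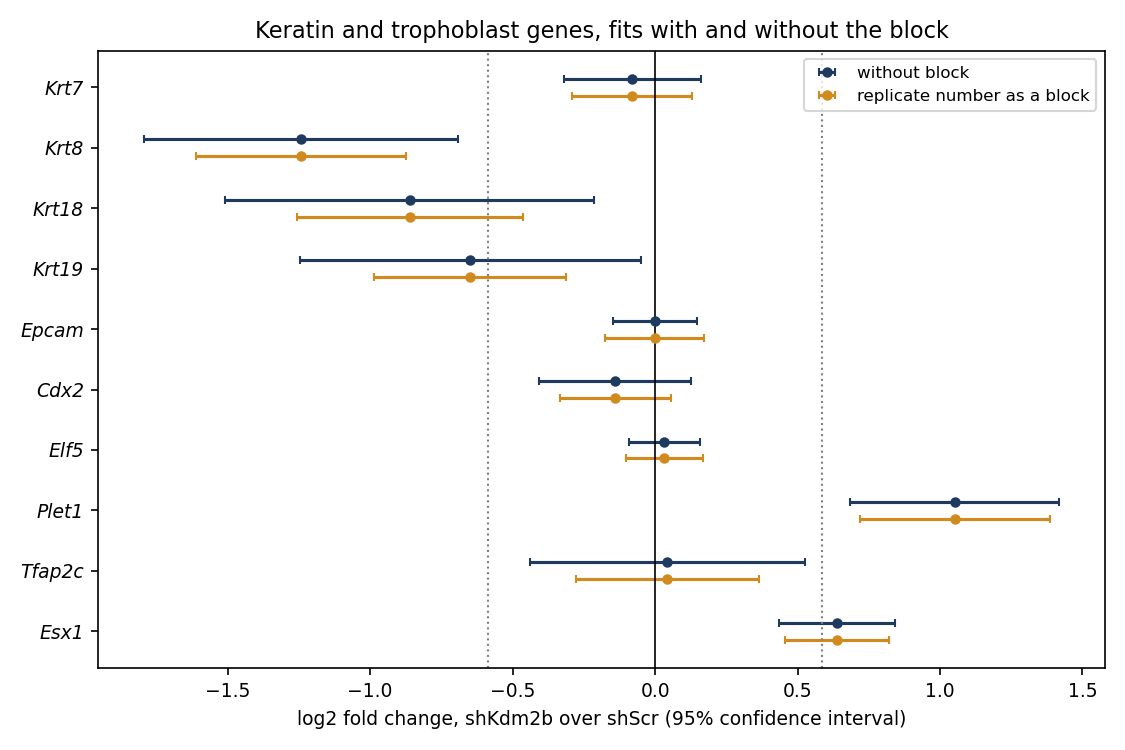
Log2 fold change (horizontal axis) of the 10 genes in the shKdm2b over the shScr arrays, with 95% confidence intervals of the fit without a block (dark blue) and once blocked by replicate number (orange). Dotted lines mark a change of 1.5-fold. These intervals are not adjusted for the number of probe sets. In both fits they exclude 0 for Krt8, Krt18, Krt19, Plet1 and Esx1, and those of Krt18 and Krt19 are narrower with the block.

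Many of the genes ranked the arrays within a group alike. Replicate 1 was the highest shKdm2b array for 9 of the 10 genes, all but Plet1, against 47.4% of all genes. It was the highest shScr array for 6 of the 10, against 29.3% of all genes, and the highest array in both groups for the same 6, Krt8, Krt18, Krt19, Cdx2, Elf5 and Tfap2c, against 15.9% of all genes. Replicate 3 was the lowest shKdm2b array for 8 of the 10, against 40.5% of all genes, and the lowest in both groups for Krt7, Krt8, Krt18, Plet1 and Esx1, against 15.5%. The spread within groups was large for a part of the set, as the pooled SDs of Krt8, Krt18, Krt19 and Tfap2c (0.40, 0.48, 0.44 and 0.35) lay at percentiles 96.1, 97.9, 97.1 and 94.2 of all probe sets. Elf5 and Epcam, with pooled SDs of 0.06 and 0.08, were below the median spread. These counts are descriptions of 8 arrays and were not tested. They use ranks alone, and for Elf5 shScr replicates 1 and 2 hardly differed (7.149 and 7.144). The genes of the set are not independent of each other.

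Other keratins were mostly dim, with 39 of 48 measured genes below the median probe set. Of the 48, none rose, 1 fell and 47 did not pass, and their median log2 fold change was 0.05. The one that fell was Krt17, a type I keratin of basal and appendage epithelia. Its log2 signal was 9.12 to 9.31 in the shKdm2b arrays and 9.95 to 10.44 in the shScr arrays, a log2 fold change of -0.94 (SE 0.11, limma adjusted p = 0.00329), and it passed in all 8 fits that left out an array. At a raw p below 0.05, 2 of the 48 were higher and 4 lower, against 16.8% and 13.6% of all genes.

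Of 27 further regulators and markers of trophectoderm and trophoblast stem cells, 25 were measured, of which none rose, 1 fell and 24 did not pass (median log2 fold change -0.00). At a raw p below 0.05, 5 were higher and 4 lower, against 16.8% and 13.6% of all genes. Fgfr2, whose product receives the FGF signal that sustains trophoblast stem cells, fell by 0.75 on the log2 scale (SE 0.19, limma adjusted p = 0.0439), from 9.54, 10.09, 10.39 and 9.76 in the shScr arrays to 9.41, 9.15, 9.32 and 8.89 in the shKdm2b arrays. Its call held in 2 of the 8 fits that left out an array, those without shKdm2b replicate 3 and without shScr replicate 1, and the adjusted p over the 8 ran from 0.0262 to 0.113 (limma). Eomes, a T-box gene of trophoblast stem cells, passed only once blocked by replicate number (log2 fold change 0.77, adjusted p = 0.0491, and 0.0533 without the block, limma) and is named because of this.

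Of 28 genes of placental trophoblast differentiation, 24 were measured, and 1 rose, none fell and 23 did not pass (median log2 fold change 0.08, with 4 higher and none lower at a raw p below 0.05, against 16.8% and 13.6% of all genes). The gene that rose, Cyp11a1, encodes the enzyme that opens steroid hormone synthesis, which trophoblast giant cells carry out. It rose by 0.76 on the log2 scale (SE 0.12, limma adjusted p = 0.0113), from 7.16 to 7.75 in the shScr arrays to 7.99 to 8.33 in the shKdm2b arrays. All of these values lay below the median probe set, 8.49. Hand1 and Hsd3b6, of the same list, did not pass (log2 fold changes -0.13 and -0.01, limma adjusted p = 0.616 and 0.957). Gcm1, Prl3d1, Prl3b1 and Prl2c2 were not measured. Tpbpa, a defining gene of the spongiotrophoblast, was dim throughout, at 5.57 to 5.95 over all 8 arrays, and 15 of the 24 genes lay below the median probe set.

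**Figure D4:**
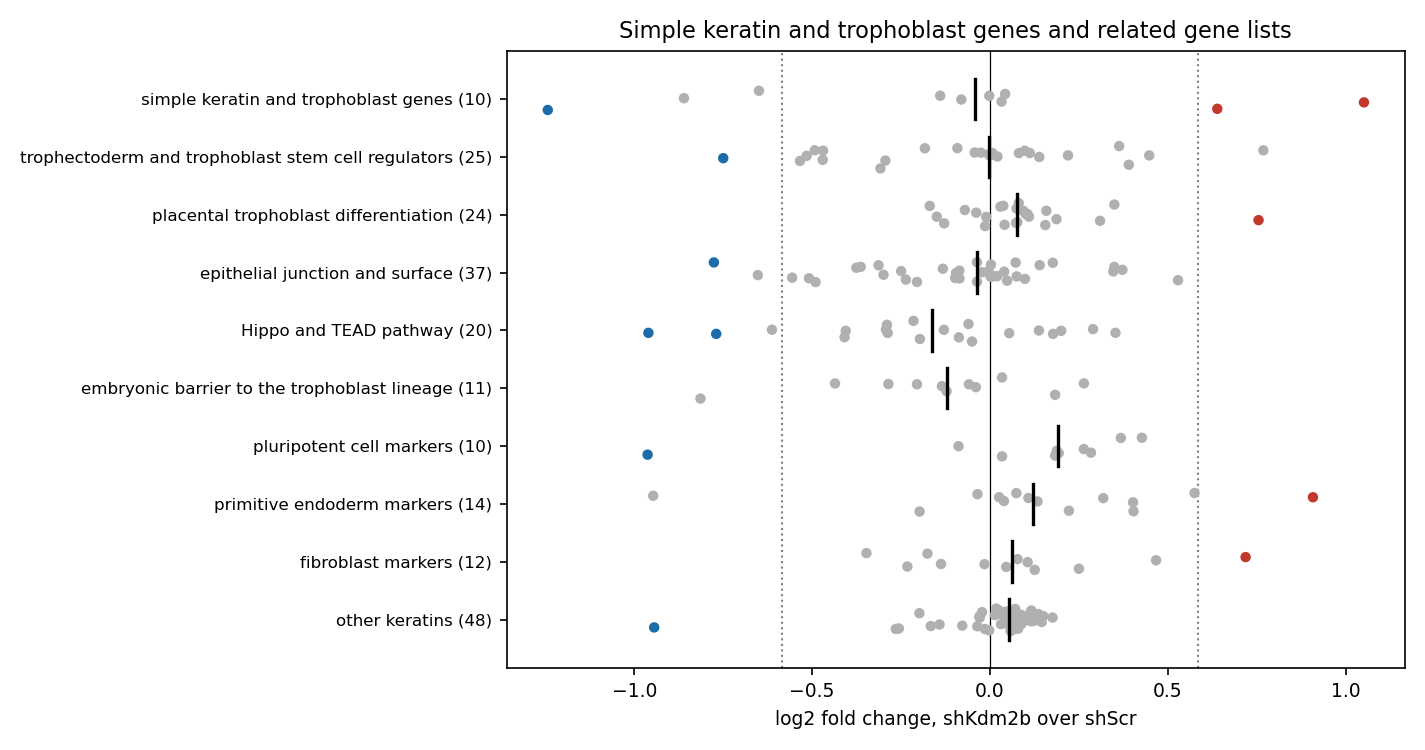
Log2 fold change (horizontal axis) of every measured gene in the 10 genes described and in 9 related lists, with the number measured in brackets. Red points met the gene rule as higher, blue points as lower and grey points did not meet it, black bars are list medians and dotted lines mark 1.5-fold. Each list holds at most 3 coloured points, and the list medians lie between -0.16 and 0.19.

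Of 38 genes of epithelial junctions and the epithelial surface, 37 were measured, and none rose, 1 fell and 36 did not pass (median log2 fold change -0.04, with 2 higher and 7 lower at a raw p below 0.05, against 16.8% and 13.6% of all genes). Cd24a, which encodes a surface glycoprotein, fell by 0.78 on the log2 scale (SE 0.14, limma adjusted p = 0.0153), from 11.52 to 12.04 in the shScr arrays to 10.85 to 11.11 in the shKdm2b arrays. The call on Cd24a was lost without shKdm2b replicate 2, at an adjusted p of 0.0528 (limma). Cdh1, the gene of E-cadherin, had a log2 fold change of -0.21 (SE 0.06, limma adjusted p = 0.0618).

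The Hippo pathway acts upstream of Cdx2, as its nuclear effectors YAP and TAZ work with TEAD factors in the outer cells of the embryo. Of 21 of its genes, 20 were measured, and none rose, 2 fell and 18 did not pass (median log2 fold change -0.16, with 2 higher and 7 lower at a raw p below 0.05, against 16.8% and 13.6% of all genes). The genes that fell, Ccn1 and Ccn2, encode secreted matrix proteins and are known targets of YAP, not components of the pathway. Ccn1 was 10.86, 10.71, 10.28 and 10.27 in the shKdm2b arrays and 12.12, 11.06, 11.16 and 11.62 in the shScr arrays (log2 fold change -0.96, SE 0.24, limma adjusted p = 0.0453). Ccn2 was 11.61, 11.23, 11.01 and 10.94 in the shKdm2b arrays and 12.23, 11.54, 12.03 and 12.06 in the shScr arrays, with an overlap at shKdm2b replicate 1 (log2 fold change -0.77, SE 0.18, limma adjusted p = 0.0370). Ccn1 passed in none of the 8 fits without 1 array (adjusted p = 0.0540 to 0.120, limma), and Ccn2 in 2 of them, without shKdm2b replicate 1 and without shScr replicate 2 (adjusted p = 0.0229 to 0.102 over the 8, limma). Once blocked by replicate number, Mob1b, a gene for a co-activator of the LATS kinases, passed as lower too (log2 fold change -0.61, adjusted p = 0.0354, and 0.0615 without the block, limma). In the fit restricted to passages 28 to 30, the calls on Ccn1, Ccn2, Fgfr2, Cyp11a1 and Cd24a were lost (limma adjusted p = 0.0601, 0.0696, 0.153, 0.0641 and 0.0865).

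Of 12 genes known to keep ESCs from the trophoblast fate, 11 were measured and none passed the gene rule in the limma fit, though 2 were higher and 3 lower at a raw p below 0.05, against 16.8% and 13.6% of all genes. Their median log2 fold change was -0.12. The 2 higher genes were Nanog and Sox2 (log2 fold changes 0.26 and 0.18, limma adjusted p = 0.121 and 0.0790). The 3 lower genes were Setdb1, Cdh1 and Dnmt3b. Setdb1, the gene of a histone methyltransferase that restrains trophoblast genes, had a log2 fold change of -0.29 (SE 0.06, limma adjusted p = 0.0302), short of 1.5-fold. Dnmt3b, a DNA methyltransferase gene, passed as lower once blocked by replicate number (log2 fold change -0.81, adjusted p = 0.0103, and 0.0884 without the block, limma). Pou5f1, whose product represses Cdx2, had a log2 fold change of 0.03 (SE 0.05, limma adjusted p = 0.680).

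Markers of pluripotent cells and of other cells that may occur in ESC cultures were read beside these results, and their part in them was not tested. Of 10 pluripotent cell markers, none rose, 1 fell and 9 did not pass, and the median log2 fold change was 0.19. At a raw p below 0.05, 6 were higher and 1 lower, against 16.8% and 13.6% of all genes, and for 5 of them all shKdm2b arrays lay above all shScr arrays, against 11.8% of all genes. The mean log2 signal of the list was 12.880 to 12.943 on the shKdm2b arrays and 12.780 to 12.879 on the shScr arrays. The lowest shKdm2b array and the highest shScr array were thus nearly equal. The gene that fell was Dppa4, with a log2 fold change of -0.96 at its most significant probe set (SE 0.10, limma adjusted p = 0.00168) and -1.10 at the other. In the fit of passages 28 to 30, its most significant probe set had -0.97 (limma adjusted p = 0.0339). Dppa4 did not meet the gene rule there, since its other probe set did not reach an adjusted p under 0.05. Fgf4, the gene of a growth factor that ESCs secrete, had a log2 fold change of 0.37 (SE 0.07, limma adjusted p = 0.0238), short of 1.5-fold.

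Of 14 markers of the primitive endoderm, an epithelium that also makes keratins 8 and 18, 1 rose, none fell and 13 did not pass, with a median log2 fold change of 0.12. At a raw p below 0.05, 5 were higher and 1 lower, against 16.8% and 13.6% of all genes. For 3 of the markers all shKdm2b arrays lay above all shScr arrays, against 11.8% of all genes. The mean of the list was 8.94 to 9.25 on the shKdm2b arrays and 8.85 to 9.03 on the shScr arrays, with overlap. The gene that rose was Hnf4a, a nuclear receptor gene of endoderm, with a log2 fold change of 0.91 (SE 0.05, limma adjusted p = 0.000196). Sox7, a transcription factor gene of the endoderm, was higher on all shKdm2b arrays, with a log2 fold change of 0.40 (SE 0.09, limma adjusted p = 0.0279) that is short of 1.5-fold. The other 3 that were higher at a raw p below 0.05 were Gata4, Gata6 and Pdgfra, with log2 fold changes of 0.40, 0.32 and 0.22 (limma adjusted p = 0.0877, 0.134 and 0.0616). The 1 that was lower was Dab2, which encodes an endocytic adaptor, at -0.95 for its most significant probe set (SE 0.25, limma adjusted p = 0.0525). Once blocked by replicate number, the adjusted p was 0.0382 (limma), but Dab2 still did not meet the gene rule. Dab2 is read by more than 1 probe set, and the others are not given here.

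Of 13 fibroblast markers, 12 were measured, and 1 rose, none fell and 11 did not pass, with a median log2 fold change of 0.06. At a raw p below 0.05, 2 were higher and 1 lower, against 16.8% and 13.6% of all genes. The mean of the list was 8.22 to 8.52 on the shKdm2b arrays and 8.17 to 8.57 on the shScr arrays, with overlap. The gene that rose was Thy1, which encodes a surface antigen of fibroblasts and other cells, with a log2 fold change of 0.72 (SE 0.05, limma adjusted p = 0.000475).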

How the data were processed

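The authors deposited log2 values, 1 per probe set and array, made from the scanner intensities with RMA in the package oligo (version 1.18.1 per the submitters' processing notes), that is by background correction, quantile normalization and summary of probes. Neither the genome build nor the annotation of the probe sets is given in the sources used here. RMA compresses changes of dim probe sets, so that signals of different probe sets were compared only as differences within an array, between groups. The number of arrays, 4 per group, limits the precision.

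All 8 samples were grouped by their titles. Gene names came from the platform's annotation in GEO, and symbols were updated through the RefSeq table of GRCm38.p6. A single gene was named by 21789 of 35556 probe sets, several genes by 1621 and none by 12146. The 19938 genes so named include 19919 whose symbol is in that table. The 2 groups were compared over all probe sets, without a block, by lmFit and eBayes (limma 3.58.1, R 4.3.3, default settings). P-values were adjusted by Benjamini-Hochberg across the whole table, and the script was tested on simulated data. The study's gene rule defined calls, at an adjusted p under 0.05 and 1.5-fold. Both groups carry replicate numbers 1 to 4, and per the labels samples were collected side by side. Arrays of the same number correlated, in their deviations from the group mean, at 0.239, 0.118, 0.355 and 0.222, each above the limit of 0.1, and those of different numbers at -0.231 to 0.0747, which was taken as pairing. The fit with this block was an alternative, beside others given below. Lists were described by counts and medians.

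The 10 genes and all lists were chosen with earlier results of these data known. The text names Kdm2b, the 10 genes and, per list, every gene that passed (4 per direction where over 5 did) or, where none passed, the 2 with the smallest p. Eomes, Mob1b, Dnmt3b, Pou5f1, Nanog, Sox2, Fgf4, Sox7, Gata4, Gata6, Pdgfra, Dab2, Hand1, Hsd3b6 and Tpbpa are named beyond that rule, after their values were seen. Promoter windows came from RefSeq (GRCm38.p6), and figures were drawn with matplotlib 3.10.9.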

Additional observations from a re-analysis of the deposited data

How the results depend on the processing

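The number of the 10 genes called higher (2) and lower (1) stayed the same when each array was centred on its own median, when dim probe sets were left out, with the trend and robust settings of eBayes and with no minimum of fold change. Once blocked by replicate number, 2 were called higher and 3 lower, Krt18 and Krt19 being added to Krt8. With passages 28 to 30 alone and the passage as a block, 0 were called higher and 1 lower. Without 1 array at a time, 1 to 2 were called higher and 0 to 1 lower. Among the genes named by the rule, the block changed no call other than those on Krt18 and Krt19. The cause of these changes was not tested. The log2 fold change of Kdm2b was -2.19 to -1.94 without 1 array, and the gene passed in every alternative. The direction of 3 genes that did not pass turned. For Elf5 the log2 fold change was -0.0060 with passages 28 to 30. For Tfap2c it was -0.26 with passages 28 to 30, and -0.12 to 0.18 without 1 array. For Epcam it was -0.047 to 0.032 without 1 array. In the fit of passages 28 to 30, Fgfr2, Cyp11a1, Cd24a, Ccn1, Ccn2 and Dppa4 no longer passed the gene rule, and Krt8, Krt17, Hnf4a and Thy1 did. The most significant probe set of Dppa4 kept an adjusted p under 0.05 (limma). Signals near the median probe set or below it limit what can be said of Krt7, Cdx2, Elf5, Esx1 and Cyp11a1.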
